A study of Mus musculus with 2 samples.

Results

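The 8 Hedgehog pathway genes Shh, Ptch1, Smo, Gli1, Gli2, Gli3, Sufu and Hhip were examined in mouse back skin, out of 15862 protein-coding genes with a promoter value. Their regions were chosen by position alone: peaks called in both libraries that lay within 500 bp of a transcription start site, inside the gene or within 20 kb of it. This gave 189 of the 214119 regions that the libraries shared (shared regions). Each gene had at least 1 shared promoter region.

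Single-cell ATAC-seq, which counts where the Tn5 transposase cuts open chromatin, was performed on E16.5 embryos with 1 Control library and 1 library of genotype MOFfl/fl/K14Cre (MOF cKO). MOF (Kat8) is the acetyltransferase that writes H4K16ac, and the Krt14 promoter that drives Cre is active in epithelial cells, not in fibroblasts. Control embryos were wild-type or heterozygous littermates on a mixed background, and cells of both genotypes carried a Krt14-H2BGFP reporter. GFP-positive epithelial cells and GFP-negative cells were sorted and mixed again to enrich epithelium, so class sizes were set by the mixing and were not compared. With 1 library per genotype nothing was tested. Intervals are 95%, cover counting error only and not the spread between embryos, and genotype cannot be told apart from library preparation.

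In Hedgehog signalling the ligand Shh binds the receptor Ptch1, which otherwise holds the transducer Smo inactive at the primary cilium. Active Smo releases the Gli transcription factors from Sufu. Gli1 is an activator and itself a target gene, Gli2 mostly activates, and Gli3 is processed mostly to a repressor. Ptch1 and Hhip, a surface protein that binds the ligand, are induced by the pathway and feed back on it. In embryonic skin, Shh from the epithelium of the hair bud signals to the epithelium and to the dermal condensate below it, and drives growth of the follicle.

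The libraries held 2541 and 4348 barcodes, with medians of 62973 cut sites per barcode in Control and 66239.5 in MOF cKO, and 21 barcode sequences occurred in both. Cells were clustered without any region of these genes or of the pathway genes listed below. Each epithelial-like cluster had 9 or 10 of 10 epithelial markers at least 2-fold above the other classes. Clusters separated almost entirely by genotype among epithelial-like cells (1390 Control, 2639 MOF cKO) and in part among fibroblast-like cells (661 and 1255). Epithelial marker promoters of epithelial-like cells summed to 288 CPM (cut sites scaled to the total of the class in shared regions) in Control and 257 CPM in MOF cKO. The same markers summed to 34.0 and 35.8 CPM in the fibroblast-like class. Immune marker promoters (8 of 8 measured, none at 0) summed in epithelial-like cells to 10.7 CPM (Control) and 24.1 CPM (MOF cKO). Muscle markers (3 of 8 measured) summed there to 11.5 and 20.4 CPM, and fibroblast markers (10 of 10 measured, all 10 lower) to 119 and 93.0 CPM. The part of these in the results was not tested. The Kat8 promoter was at 48.8 and 36.7 CPM in epithelial-like cells, which does not check the deletion, since the promoter may lie outside the floxed part.

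In epithelial-like cells, 7 of the 8 promoters were less accessible in MOF cKO, with log2 changes from -0.83 at Ptch1 to -0.38 at Gli2, and Hhip was at 0.05. None of the 8 passed 2-fold, where 2.5% of all 15862 promoters were past 2-fold lower and 2.24% past 2-fold higher. The median change of the 8 was -0.44 on the log2(MOF cKO / Control) scale. That of all promoters was -0.41, with 85.8% of them below 0. Ptch1 and Smo lay below most other promoters and Hhip above most. Scaled to promoter sites instead of all shared sites, which brought the median of all promoters to -0.02, the median of the 8 was -0.04, and Gli2 was at 0.02 with an interval of -0.06 to 0.10.

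**Figure D1:**
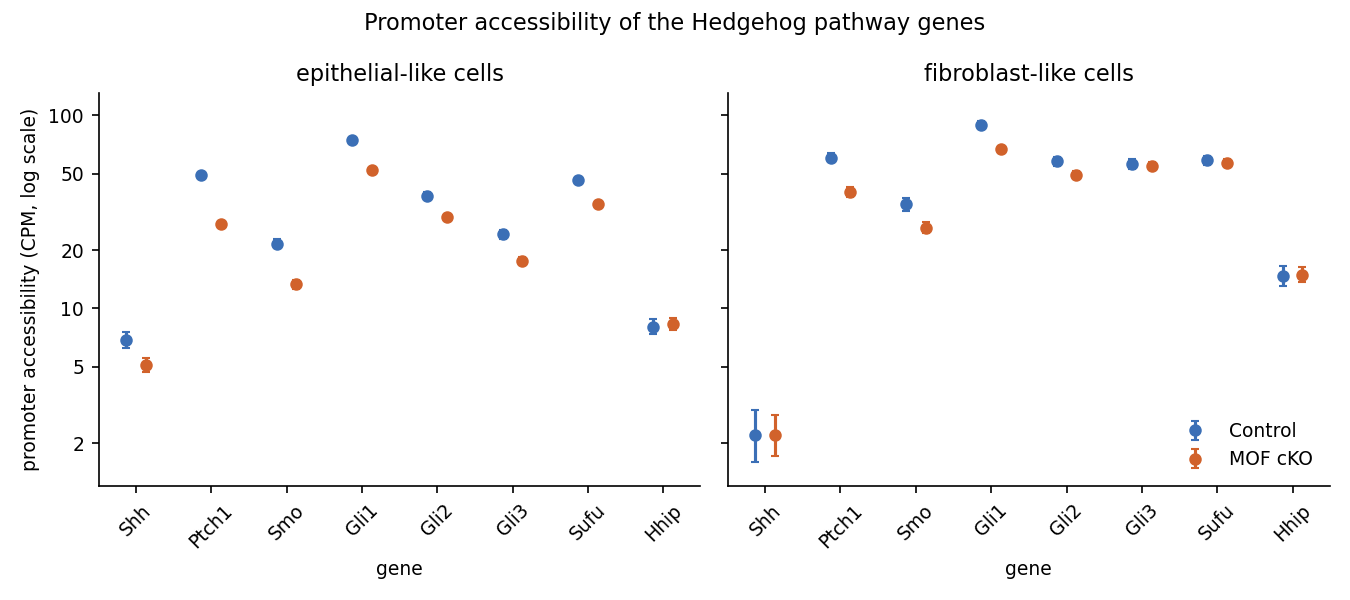
Promoter accessibility (CPM, log scale) of each gene in epithelial-like cells (left) and fibroblast-like cells (right), with 1 point per library (blue Control, orange MOF cKO) and bars for the 95% Poisson interval. In epithelial-like cells the MOF cKO point lies below Control for all genes but Hhip, and in fibroblast-like cells Ptch1, Smo, Gli1 and Gli2 are lower, while Shh, Gli3, Sufu and Hhip have overlapping intervals.

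Shh, the ligand, had the lowest promoter accessibility of the set per length. Its promoter region (chr5:28466321-28467371, mm10) held 795 Control and 1054 MOF cKO sites in epithelial-like cells, which is 6.87 CPM (6.21 to 7.58) and 5.09 CPM (4.67 to 5.55). The change was -0.43 (-0.62 to -0.24), and 46.5% of all promoters had a lower value. In fibroblast-like cells the promoter was at 2.21 CPM in both libraries, with intervals of 1.61 to 2.97 and 1.71 to 2.79. Over its 7 regions the sum was 36.9 CPM in Control and 26.7 CPM in MOF cKO epithelial-like cells. Of the 7, 6 had an interval below 0, as had 38.1% of all shared regions, and 1 was past 2-fold lower, as were 12.5% of all. This was an intronic region 6.55 kb after the gene start, at 2.66 and 1.03 CPM, a change of -1.37 (-1.740 to -1.004).

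The Shh promoter varied between sub-clusters. Among the 8 sub-clusters of Control epithelial-like cells, the Shh promoter ranged from 2.19 to 15.3 CPM. The highest was a sub-cluster of 214 cells with no name, at 15.3 CPM (12.8 to 18.2), followed by 1 of 2 hair-follicle-like sub-clusters, at 10.6 CPM (8.49 to 13.1, 157 cells). The intervals of these 2 did not reach those of the other 6, which were between 2.19 and 5.78 CPM. In MOF cKO, 9 of 10 sub-clusters were between 2.58 and 6.86 CPM. The remaining sub-cluster held 36 cells and 28 sites and was at 14.4 CPM (7.86 to 24.1), as high as the Control maximum within counting error. Both Control hair-follicle-like sub-clusters were named on 3 of 12 markers, the least that the rule allows. No MOF cKO epithelial-like sub-cluster met the marker rule for any type, be it hair-follicle-like, basal-like or suprabasal-like, so no follicle-specific absence can be read from this. Without the 3 highest sub-clusters named here and the other hair-follicle-like one, the epithelial-like Shh change turned to 0.35 (0.06 to 0.65), but they were picked in part for high Shh and the choice favours that turn. Hair follicle marker promoters (11 of 12 measured, none at 0) summed to 303 CPM in Control and 225 CPM in MOF cKO epithelial-like cells. This change of -0.43 was near the median of all promoters there, -0.41. The sums of basal and suprabasal markers changed by -0.35 and -0.33.

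**Figure D2:**
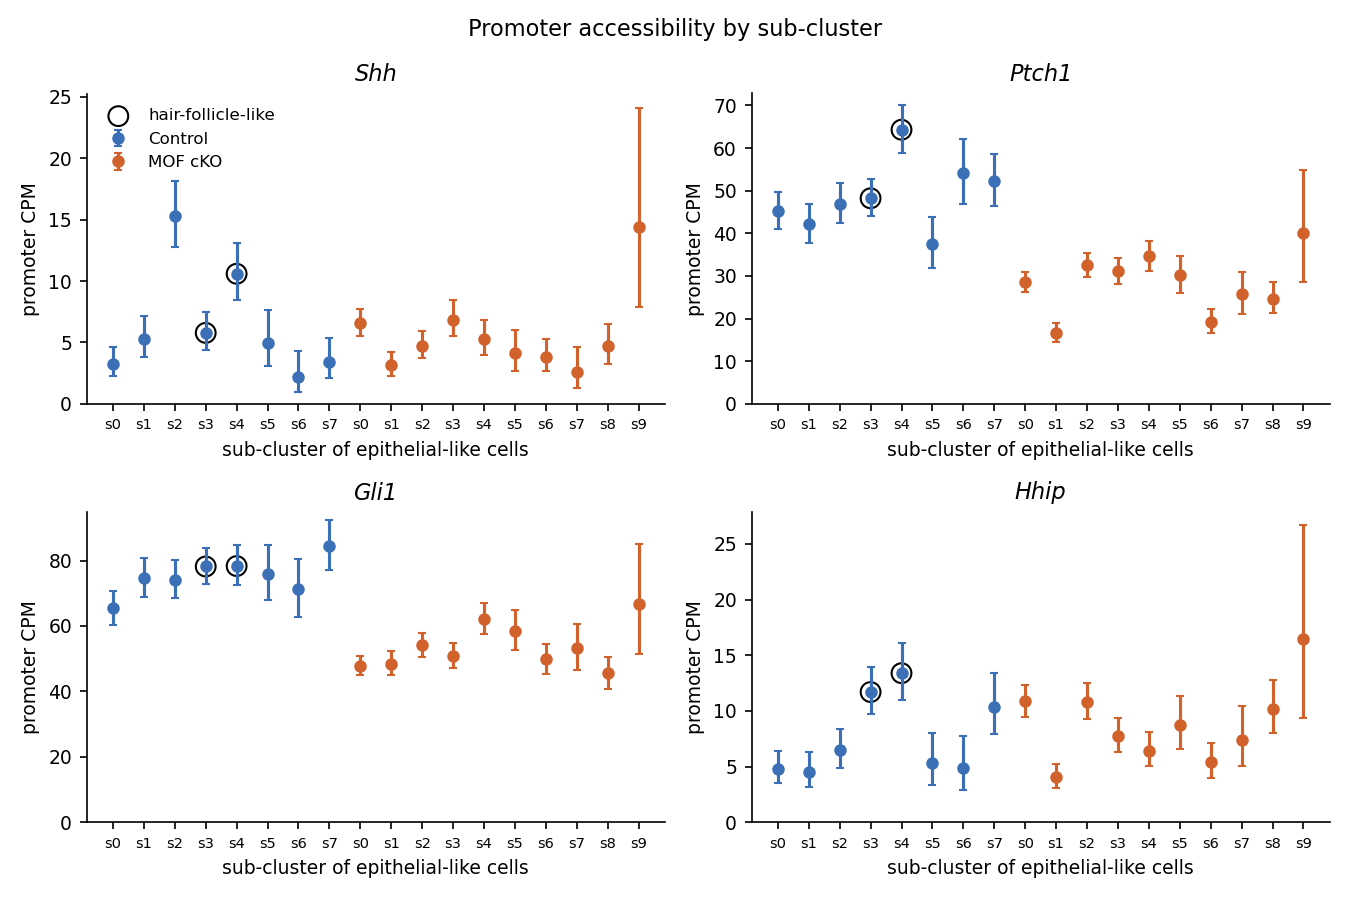
Promoter CPM of Shh, Ptch1, Gli1 and Hhip in each sub-cluster of epithelial-like cells, 8 from Control (blue) and 10 from MOF cKO (orange), numbered within each library, so that equal numbers are not matched cells. Bars are 95% Poisson intervals and circles mark hair-follicle-like sub-clusters. Shh is highest in 1 Control sub-cluster (15.3 CPM) and in the MOF cKO one of 36 cells (14.4 CPM). For Ptch1 and Gli1 the point values of the other 9 MOF cKO sub-clusters lie below every Control one, but some intervals overlap. The share of all promoters that separate in this way was not counted.

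Ptch1, the receptor, had the lowest change at promoters in both classes. Its summed promoter was at 49.0 CPM (47.2 to 50.8) in Control and 27.5 CPM (26.5 to 28.6) in MOF cKO epithelial-like cells. The change was -0.83 (-0.91 to -0.76), and 4.85% of all promoters were lower. In fibroblast-like cells it was at 60.5 and 40.1 CPM, a change of -0.59 (-0.71 to -0.48), with 2.47% of promoters lower. Scaled to promoter sites, the epithelial-like value was -0.44 and kept its sign.

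Ptch1 has 2 shared promoter regions. The one at the annotated gene start (chr13:63573136-63574022) was at 10.9 and 4.43 CPM in epithelial-like cells, a change of -1.30 (-1.47 to -1.12). The one at downstream start sites (chr13:63565901-63566823) was at 38.1 and 23.1 CPM, a change of -0.72 (-0.81 to -0.64). The order was turned in fibroblast-like cells, with -0.46 (-0.67 to -0.24) at the gene start and -0.65 (-0.79 to -0.51) downstream, and those intervals overlapped.

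Both Ptch1 promoter regions held the letters of the Gli binding motif, TGGGTGGTC, searched on both strands. They are shown because they were the only promoter regions of the 8 genes with a match (2 of 11), against 0.785% of all promoter regions. The match is in capitals, 5′ to 3′ on the strand of the gene, with 30 bases on either side, from GRCm38.p6.

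Ptch1 gene start, chr13:63573435-63573503: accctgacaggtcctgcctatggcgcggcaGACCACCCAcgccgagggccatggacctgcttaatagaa

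Ptch1 downstream start, chr13:63566405-63566473: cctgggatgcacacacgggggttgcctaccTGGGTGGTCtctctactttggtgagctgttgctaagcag

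Outside promoters the letters occurred in 2 of 178 member regions, against 0.793% of all such regions. These lay upstream of Smo and in an intron of Gli2.

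Smo upstream, chr6:29719043-29719111: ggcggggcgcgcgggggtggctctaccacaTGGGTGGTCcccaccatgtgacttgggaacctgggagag

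Gli2 intron, chr1:118969513-118969581: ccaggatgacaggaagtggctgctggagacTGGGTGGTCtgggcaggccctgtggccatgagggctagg

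The region with the Smo match changed by -0.36 and that with the Gli2 match by 0.47 in epithelial-like cells. The Gli2 one was at -1.35 (-1.94 to -0.77) in fibroblast-like cells. The shorter letters TGGGTGG were in 5 of 11 promoter regions and 41 of 178 others, against 25.2% and 22.1% of all. A match shows the letters only. The 300-base RefSeq promoter windows of Gli2, Smo, Hhip, Gli3, Ptch1 and Sufu held neither, against 0.253% of 32817 windows for the long and 9.31% for the short form. No window was read for Shh or Gli1.

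Of the 18 Ptch1 regions, 11 were past 2-fold lower in MOF cKO epithelial-like cells and 17 had an interval below 0. Over all shared regions, 12.5% were past 2-fold lower and 38.1% had an interval below 0. In fibroblast-like cells 6 of the 18 were past 2-fold lower, where 7.22% of all regions were. The summed Ptch1 regions were at 140 and 86.6 CPM in epithelial-like cells, a change of -0.69 (-0.74 to -0.65), and at 179 and 119 CPM in fibroblast-like cells, a change of -0.59 (-0.66 to -0.52).

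The region of the 189 with the lowest change that had at least 200 epithelial-like sites lay over an exon of Ptch1, 47.9 kb after the gene start (chr13:63525081-63526365). It held 401 sites (3.46 CPM) in Control and 82 sites (0.396 CPM) in MOF cKO, a change of -3.13 (-3.65 to -2.64). Its signal came mostly from 1 of the Control sub-clusters. The hair-follicle-like sub-cluster of 157 cells was at 13.1 CPM, the sub-cluster of 75 cells with a median doublet score of 0.86 (the share of simulated cell pairs among its neighbours) at 4.13 CPM, the other hair-follicle-like one at 3.69 CPM, and the suprabasal-like one had 0 sites. All 10 MOF cKO sub-clusters were at or below 1.33 CPM, but the remaining Control sub-clusters were also low, from 0.253 to 1.64 CPM. The region was picked for its change between these same cells, so the contrast follows in part from the choice. In fibroblast-like cells it was at 10.0 and 7.73 CPM, a change of -0.38 (-0.65 to -0.10). The central 200 bases of this region are printed, with no Gli or AP-1 letters (TGANTCA) in them. The short Gli letters TGGGTGG occur elsewhere in the region.

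Ptch1 exon region, chr13:63525624-63525823: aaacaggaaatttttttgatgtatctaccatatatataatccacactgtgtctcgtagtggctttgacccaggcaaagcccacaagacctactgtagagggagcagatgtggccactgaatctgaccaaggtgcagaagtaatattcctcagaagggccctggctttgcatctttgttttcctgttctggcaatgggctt

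A second Ptch1 region, in an intron 20.9 kb after the gene start, was low in both classes of MOF cKO. It changed by -1.85 (-2.41 to -1.30) in epithelial-like and by -1.67 (-2.26 to -1.10) in fibroblast-like cells, where it was the lowest of all member regions with 200 sites. One Ptch1 intron region went the other way. It lay 24.9 kb after the gene start and was at 2.32 CPM in Control and 7.57 CPM in MOF cKO, a change of 1.70 (1.44 to 1.98).

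Smo, the transducer, had the next lowest promoter change in epithelial-like cells, and the third lowest in fibroblast-like cells. Its promoter (chr6:29735113-29735934) was at 21.6 CPM (20.5 to 22.9) in Control and 13.3 CPM (12.6 to 14.1) in MOF cKO epithelial-like cells, a change of -0.70 (-0.81 to -0.59). In fibroblast-like cells it was at 34.7 and 26.2 CPM, a change of -0.40 (-0.55 to -0.25), with 4.93% of promoters lower. A further Smo promoter region (chr6:29736112-29736760) was called in MOF cKO alone, at 4.43 CPM in epithelial-like and 9.61 CPM in fibroblast-like cells. It has no Control value and is left out, so the Smo promoter changes and their rank hold for the shared region only. Over the 14 regions together the epithelial-like change was -0.15 (-0.19 to -0.11). The 9 outside other genes summed to a change of -0.01 (-0.06 to 0.04) there and -0.44 (-0.54 to -0.34) in fibroblast-like cells. Median-of-ratios scaling brought the sum of all 14 to 0.001 and promoter scaling to 0.24, and the regions in the gene body or promoter alone summed to -0.67, so the value depended on scaling and on the regions taken.

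Hhip, the ligand-binding inhibitor, had an epithelial-like promoter value that was not lower in MOF cKO. Its sign depended on the scaling (-0.10 with the sites of all peaks, 0.44 with promoter sites). The region (chr8:80057400-80058448) was at 8.06 CPM (7.34 to 8.82) in Control and 8.32 CPM (7.77 to 8.89) in MOF cKO epithelial-like cells, a change of 0.05 (-0.12 to 0.21), and 87.1% of promoters were lower. In fibroblast-like cells it was at 14.8 and 15.0 CPM. Its 16 regions summed to 36.7 and 52.3 CPM in epithelial-like cells, a change of 0.51 (0.44 to 0.59). The median change over the 16 was 0.02, and the largest rises were in the intron regions described below. None was past 2-fold lower and 3 were past 2-fold higher, beside 12.5% and 16.8% of all shared regions. In fibroblast-like cells the sum was 30.1 and 31.2 CPM, and the interval of the change was -0.09 to 0.20.

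The highest change among member regions was in an intron of Hhip, 44.1 kb after the gene start (chr8:80013474-80014421). It was at 0.820 CPM (0.604 to 1.09) in Control and 9.84 CPM (9.24 to 10.5) in MOF cKO, a change of 3.58 (3.16 to 4.04). Every MOF cKO sub-cluster was at 3.08 CPM or more, and no Control sub-cluster was above 1.64 CPM. That Control maximum rests on 12 sites and its interval, 0.60 to 3.57 CPM, passed the lowest MOF cKO value. The region was picked for its change between these same cells, so the separation follows in part from the choice. In fibroblast-like cells it held 6 and 18 sites. Another intron region of Hhip, 62.7 kb after the start, was at 0.838 and 4.97 CPM, a change of 2.57 (2.14 to 3.02). Its level varied within the MOF cKO, from 0.43 to 9.85 CPM over sub-clusters.

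Sufu, which holds the Gli proteins in the cytoplasm, had the most accessible promoter per length in both classes. The region (chr19:46396465-46397310) was at 46.3 CPM (44.5 to 48.0) in Control and 34.8 CPM (33.7 to 36.0) in MOF cKO epithelial-like cells. The change of -0.41 (-0.48 to -0.34) had 51.1% of promoters below it. In fibroblast-like cells the values were 58.5 and 56.8 CPM, a change of -0.04 (-0.15 to 0.07). A Sufu intron region 62.6 kb after the start (chr19:46458955-46459966) was the second highest change of the set, from 1.15 to 10.7 CPM, or 3.22 (2.86 to 3.60). Its values were 0.70 to 3.42 CPM over Control and 3.08 to 17.0 CPM over MOF cKO sub-clusters. Another intron region, 69.4 kb after the start, was among the lowest, from 3.75 to 1.07 CPM, or -1.81 (-2.15 to -1.47). The sum over the 27 Sufu regions changed by -0.22 (-0.25 to -0.19), by 0.002 when regions outside the gene were left out and by 0.17 with promoter scaling.

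Gli1, the activator and target, had 3 promoter regions, at 75.0 CPM in all (72.8 to 77.3) in Control and 51.9 CPM (50.5 to 53.3) in MOF cKO epithelial-like cells. The change was -0.53 (-0.59 to -0.47), with 26.4% of promoters lower. In fibroblast-like cells the sum was 89.3 and 66.7 CPM, a change of -0.42 (-0.51 to -0.33), with 4.56% of promoters lower. The 3 regions had like changes, from -0.60 to -0.38 in epithelial-like and from -0.53 to -0.33 in fibroblast-like cells. Over sub-clusters the promoters ranged from 65.3 to 84.4 CPM in Control and from 45.5 to 66.8 CPM in MOF cKO, where the small sub-cluster of 36 cells was highest. The MOF cKO minimum was a sub-cluster of 108 cells with a median doublet score of 0.79. The Control maximum was a sub-cluster of 75 cells led by fibroblast genes such as Col3a1 and Twist1, with a median doublet score of 0.86, and the next highest was at 78.3 CPM. By point value the ranges overlapped only by the MOF cKO sub-cluster of 36 cells, as they did for Ptch1 (37.5 to 64.3 CPM against 16.7 to 40.1 CPM). For both genes the intervals of the next highest MOF cKO sub-cluster and of the lowest Control one overlapped. How many of all promoters separate in this way was not counted. Of the 14 Gli1 regions, 12 had an interval below 0 in epithelial-like cells, beside 38.1% of all shared regions, and 1 was past 2-fold lower, beside 12.5%. The 14 include the 3 promoter regions, and 78.6% of all promoters had an interval below 0. Others of the 14 lay inside other genes or at the promoter of another gene.

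Gli2, mostly an activator, was at 38.4 CPM (36.9 to 40.1) in Control and 29.6 CPM (28.6 to 30.7) in MOF cKO epithelial-like cells at its promoter (chr1:119053371-119054314), a change of -0.38 (-0.46 to -0.30). In fibroblast-like cells the values were 57.8 and 49.2 CPM, a change of -0.23 (-0.35 to -0.12). Its 47 regions went both ways. In epithelial-like cells 12 were past 2-fold lower and 7 past 2-fold higher, beside 12.5% and 16.8% of all shared regions. The sum changed by 0.10 (0.07 to 0.12), or by -0.05 scaled to the sites of all peaks, while the median over the 47 was -0.67. In fibroblast-like cells 6 were past 2-fold lower and 1 past 2-fold higher, beside 7.22% and 10.8% of all, and the sum changed by -0.14 (-0.18 to -0.10). The lowest was an intron region 54.4 kb after the start, at 1.91 and 0.425 CPM in epithelial-like cells, a change of -2.17 (-2.70 to -1.65), and at 12.8 and 7.23 CPM in fibroblast-like cells.

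Gli3, the main repressor, was at 24.2 CPM (22.9 to 25.5) in Control and 17.7 CPM (16.9 to 18.5) in MOF cKO epithelial-like cells at its promoter (chr13:15462984-15463990), a change of -0.45 (-0.55 to -0.35). In fibroblast-like cells it was at 56.2 and 54.5 CPM, a change of -0.04 (-0.15 to 0.07). A further Gli3 promoter region (chr13:15464304-15464904), called in MOF cKO alone, is left out for want of a Control value. It was at 3.44 CPM in epithelial-like and 12.0 CPM in fibroblast-like cells. The 46 shared regions of Gli3 also went both ways, with 11 past 2-fold lower and 5 past 2-fold higher in epithelial-like cells, beside the same 12.5% and 16.8%. The summed change was 0.15 (0.11 to 0.19), while the median over the 46 was -0.23. An intron region 87.7 kb after the start reached 15.6 CPM in MOF cKO from 2.99 CPM in Control, a change of 2.39 (2.16 to 2.62), close to the 17.7 CPM of the promoter itself. A region 12.1 kb upstream changed by 2.76 (2.19 to 3.39), from 0.458 to 3.10 CPM.

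**Figure D3:**
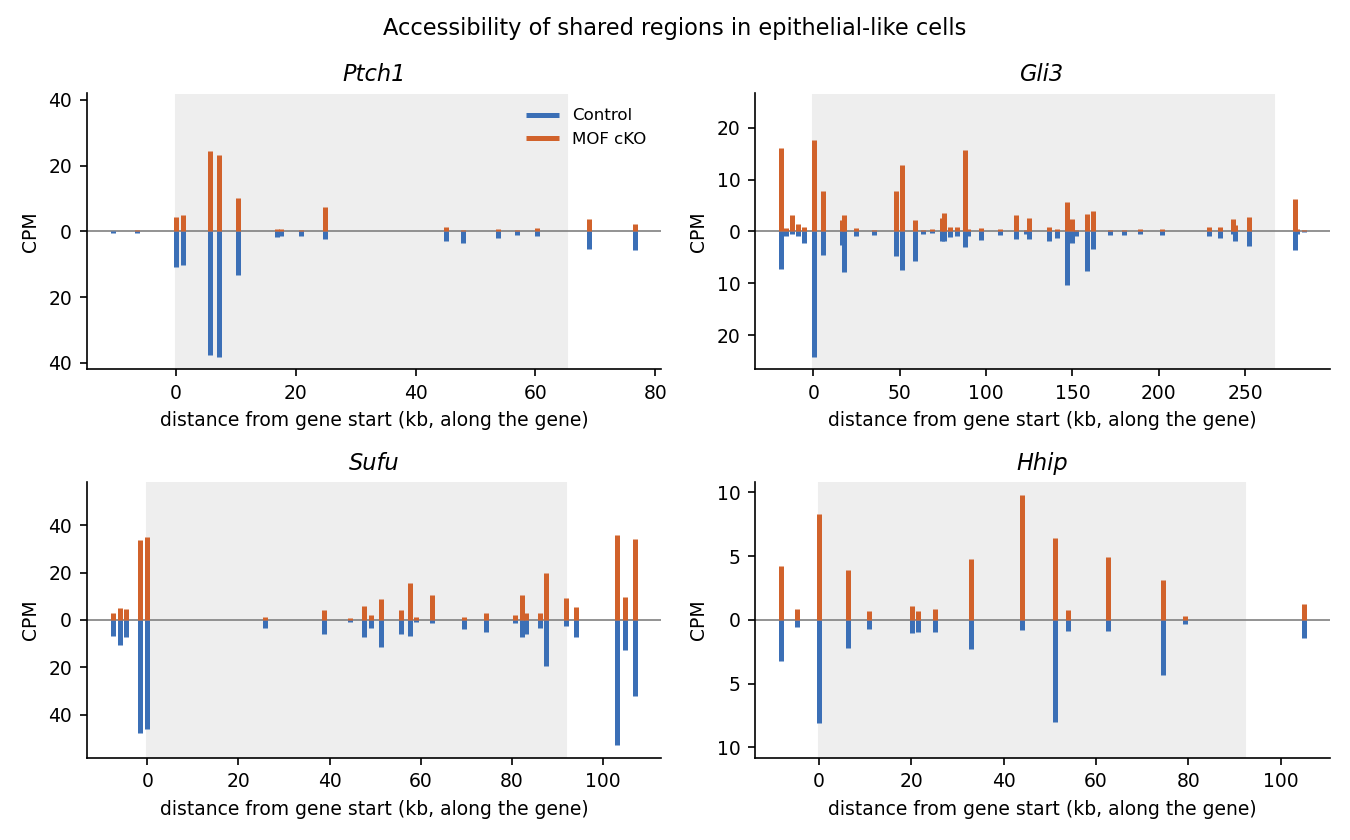
CPM of each shared region in epithelial-like cells at Ptch1, Gli3, Sufu and Hhip against its distance from the gene start, with MOF cKO (orange) drawn upward and Control (blue) downward from 0 and the gene shaded. Most Ptch1 bars are shorter in MOF cKO, while single intron regions of Gli3, Sufu and Hhip stand out in MOF cKO, up to 15.6, 10.7 and 9.84 CPM among those named.

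Over all 8 genes, 42 of 189 regions (22.2%) were past 2-fold lower in epithelial-like cells and 20 (10.6%) past 2-fold higher, beside 12.5% and 16.8% of all 214119. Of the 42, Ptch1 held 11, Gli2 12 and Gli3 11. The median over the 189 was -0.43, beside -0.15 over all shared regions, and for regions over 2000 bp from any start site it was -0.42 over 144, beside -0.09. In fibroblast-like cells, 185 regions had at least 20 sites. Of these, 24 (12.97%) were past 2-fold lower and 8 (4.32%) past 2-fold higher, beside 7.22% and 10.8% of all, and the median was -0.11, beside 0.02. The epithelial-like split depended on scaling: with promoter scaling it was 16 lower and 31 higher. The shares over all regions were not computed under that scaling, so these counts cannot be set against the rest. At promoters in fibroblast-like cells none of the 8 was past 2-fold, beside 0.832% lower and 1.85% higher of all, and the median was -0.14, beside -0.03.

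**Figure D4:**
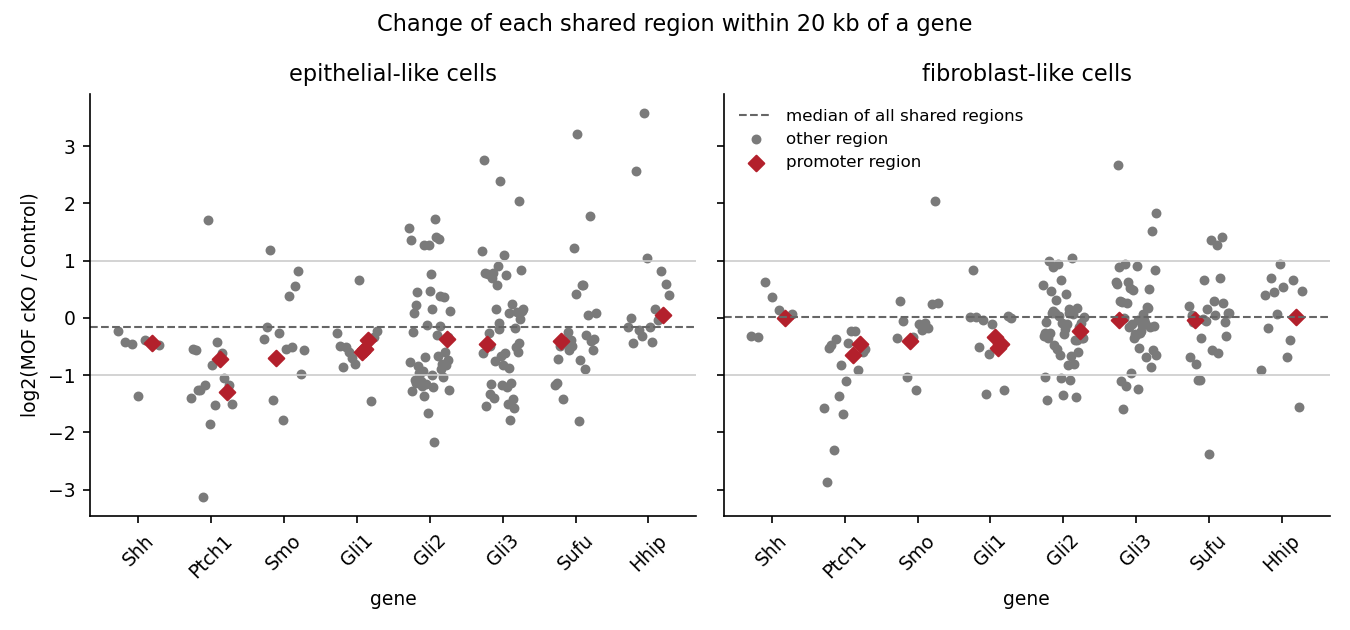
Change of each shared region within 20 kb of a gene, as log2(MOF cKO / Control), ordered by position within a gene (grey, promoter regions as red diamonds), in epithelial-like cells (left) and fibroblast-like cells (right). The dashed line is the median of all shared regions (-0.15 and 0.02) and grey lines mark 2-fold. Ptch1 lies mostly below the dashed line in both classes, and the highest points, up to 3.58, are intron regions of Hhip and Sufu.

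The AP-1 letters TGANTCA, counted after the data were seen, were in 17 of the 20 regions past 2-fold higher in epithelial-like cells, in 3 of the 42 past 2-fold lower and in 36 of the 127 between. Over all shared regions the shares were 74.6%, 19.5% and 30.7%, and the order of the 3 groups was the same. The letters were in each of the 5 regions with the highest change, printed with the match in capitals and 30 bases on either side, on the strand of the gene. AP-1 is a family of stress- and growth-induced transcription factors.

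Hhip intron at 44.1 kb, chr8:80013643-80013709: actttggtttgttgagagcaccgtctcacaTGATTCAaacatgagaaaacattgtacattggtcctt

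Hhip intron at 62.7 kb, chr8:79995295-79995361: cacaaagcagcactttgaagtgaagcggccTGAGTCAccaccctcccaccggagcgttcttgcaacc

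Sufu intron at 62.6 kb, the first of 2 matches, chr19:46459473-46459539: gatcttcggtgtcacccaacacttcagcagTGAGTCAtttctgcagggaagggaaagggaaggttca

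Gli3 intron at 87.7 kb, chr13:15550842-15550908: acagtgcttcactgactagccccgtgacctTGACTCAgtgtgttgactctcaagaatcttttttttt

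Gli3 upstream, chr13:15451161-15451227: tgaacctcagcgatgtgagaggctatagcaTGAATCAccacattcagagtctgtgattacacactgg

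In fibroblast-like cells the 3 lowest named regions were the Ptch1 intron region above, a Gli3 intron region 35.2 kb after the start at 8.25 and 2.75 CPM, and a region at the Fancc promoter 10.9 kb beyond the end of Ptch1 at 6.72 and 2.25 CPM. The Gli3 region changed by -1.58 (-1.98 to -1.20) and the Fancc one by -1.58 (-2.01 to -1.15). Both were also below 0 in epithelial-like cells, at -1.15 and -1.40. The 3 highest lay beyond the end of Gli3, at 2.06 and 7.36 CPM with a change of 1.83 (1.35 to 2.35), and in introns of Sufu, with changes of 1.42 (1.03 to 1.83) and 1.28 (0.84 to 1.74). In epithelial-like cells the first 2 of these had intervals that held 0.

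The authors called 225 Control and 261 MOF cKO peaks at the 8 genes. Of these, 85.8% and 72.8% lay in shared regions, beside 86.8% and 64.0% of all peaks. A peak called in 1 library has no value in the other. Hhip was the 1 gene with more Control peaks (23 against 19), and 7 of its regions were called in Control alone and 2 in MOF cKO alone. Of its Control peaks 69.6% were shared, beside the 86.8% of all. All 8 unshared Smo regions came from MOF cKO. Over the whole series, 122539 regions were called in MOF cKO alone and 32976 in Control alone. Shh had 7 peaks in each library, all shared. Among unshared regions, a MOF cKO peak in an intron of Smo, 3.29 kb after the start, reached 7.93 CPM in epithelial-like and 0.773 CPM in fibroblast-like cells. A Control peak in an intron of Gli3 (chr13:15512839-15513652) was at 7.50 and 0.428 CPM in the same classes. Just before it lay a MOF cKO peak (chr13:15511779-15512585) at 6.11 and 1.13 CPM, so the Control peak cannot be read as open in Control alone.

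Levels between genes were compared per kb of promoter region. In Control epithelial-like cells the order was Sufu at 54.7 CPM per kb, then Gli2, Gli1, Ptch1, Smo, Gli3, Hhip and Shh at 6.53. The intervals of Ptch1, Smo and Gli3 overlapped in sequence, as did those of Hhip and Shh. In MOF cKO, Ptch1 went from the fourth to the sixth place, at 15.2 CPM per kb, where its interval overlapped that of Smo above it and not that of Gli3. In fibroblast-like cells Gli3 took the third place in Control and the second in MOF cKO (55.8 and 54.2 CPM per kb), and Shh was lowest at 2.11 and 2.10. The intervals of Gli2 and Gli3 overlapped in both libraries, so their order there is within counting error.

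**Figure D5:**
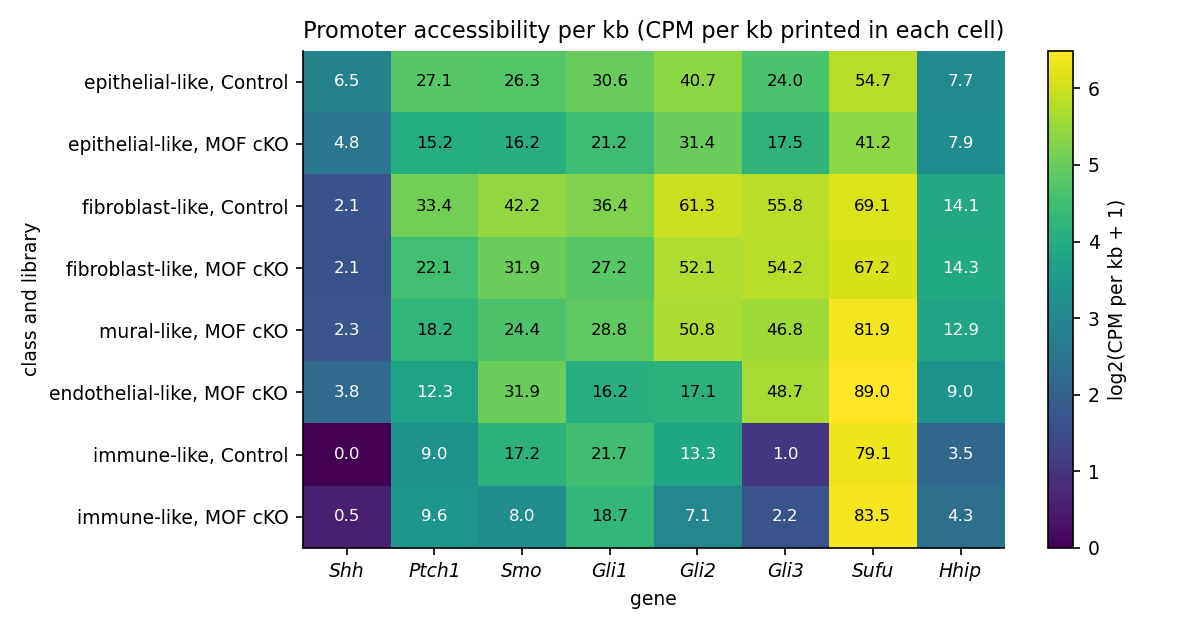
Promoter accessibility of each gene per kb (CPM per kb, printed in the cells, with colour on a log2 scale) in named classes with at least 20 cells, 1 row per class and library. Shh is highest in epithelial-like cells (6.5 in Control), Gli3 is near 0 in immune-like cells, and Sufu is high in every row.

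Across the 13 sums of a class or unnamed cluster in 1 library with at least 20 cells, Shh was highest in Control epithelial-like cells and was at 0 of the Control immune-like cells' sites, where the interval reached 3.86 CPM. Gli3 separated classes most clearly. Its promoter was at 1.05 CPM (0.03 to 5.83) in Control and 2.19 CPM (1.07 to 3.98) in MOF cKO immune-like cells, against 17.7 CPM or more in all other sums. Ptch1 and Gli1 were highest in Control fibroblast-like cells, and the values of most neighbours in those orders overlapped. Among fibroblast-like sub-clusters of Control, Ptch1 was highest in the dermal-condensate-like one (50 cells), at 82.5 CPM, and in an unnamed one at 82.4 CPM. The former was named on 4 of 11 markers. In MOF cKO the Ptch1 promoter did not pass 51.4 CPM, leaving out a sub-cluster of 10 cells. No MOF cKO fibroblast-like sub-cluster was named dermal-condensate-like, so like cells are not compared here. In the 10 cells left out, 4 of the same 11 markers were above the others, but they held only 2 Ptch1 promoter sites.

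The genes whose promoters were most alike over those 13 sums, by Pearson correlation of log2(CPM + 5), were Tnfsf18 (0.927), Wnt9b (0.910) and Kcne1 (0.895) for Shh. They were Cpz (0.942), Hydin (0.928) and Msx2 (0.919) for Ptch1, and Mr1 (0.896), Grip2 (0.844) and Palld (0.830) for Gli1. These were the highest of 15447 genes, and the sums share 2 libraries and differ in depth, so they are a description.

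Of 41 other pathway genes, 39 had a promoter value and none was past 2-fold in either class. In epithelial-like cells 36 were lower, 33 with an interval below 0, and the median was -0.52. Of all promoters there, 85.8% were lower and 78.6% had an interval below 0, and the median was -0.41. In fibroblast-like cells 32 were lower, 16 with an interval below 0 and 3 above, and the median was -0.15. Of all promoters there, 58.4% were lower, 17.7% had an interval below 0 and 10.4% above, and the median was -0.03. Among the 6 ligands and release factors, 6 intervals were below 0 in epithelial-like cells and 2 in fibroblast-like cells. An example is Scube3, a secreted factor for ligand release, at -0.66 (-0.80 to -0.53) in epithelial-like cells. Of the 4 receptors and co-receptors, 3 were lower in the epithelial-like class and 2 in the fibroblast-like class. Gas1, a co-receptor, was at -0.51 (-0.57 to -0.44) in the former and 0.08 (-0.01 to 0.17) in the latter.

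The 10 ciliary regulators had the lowest median in epithelial-like cells, -0.68, with 10 of 10 intervals below 0 beside 78.6% of all promoters, and a median of -0.04 in fibroblast-like cells. Efcab7, which anchors the Evc complex in the cilium, was at -0.92 (-1.06 to -0.78), and Kif7, the kinesin that organizes the cilium tip, at -0.88 (-0.98 to -0.78). The 10 genes of kinases and turnover had medians of -0.48 and -0.10, with Cul3, a ubiquitin ligase scaffold, at -0.88 (-0.95 to -0.82) in epithelial-like cells. The 9 genes known as induced in responding cells differed in order between the classes. Their median was -0.10 in epithelial-like cells, above that of all promoters, with 4 intervals below 0, and -0.23 in fibroblast-like cells, with 6 below 0 and 1 above, beside 17.7% and 10.4% of all promoters. In epithelial-like cells they ran from -0.92 (-0.998 to -0.838) at Ccnd2, a cell cycle cyclin, to 0.17 at Foxf2, a transcription factor, and 5 of the 9 intervals held 0. Foxd1, a transcription factor of mesenchyme, was at -0.52 (-0.72 to -0.31) and Foxf1, another, at 0.51 (0.32 to 0.70) in fibroblast-like cells.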

How the data were processed

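Single-cell ATAC-seq of E16.5 back skin was compared between 1 Control and 1 MOF cKO library. The authors aligned reads and called cells and peaks per library with Cell Ranger ATAC and a Cell Ranger ARC mm10 reference, and deposited raw counts of cut sites per peak and cell. Peaks overlapping by 1 bp were merged, and regions with a peak in both libraries were kept. Cells under 1000 sites were left out. Cells were clustered on TF-IDF and singular vectors (scikit-learn 1.9.0) and classes named by promoter markers. No doublets were removed. Doublet scores were computed, and sub-clusters with mixed markers were left out as an alternative. Counts were summed per class and library and divided by the class's sites in shared regions (CPM). Poisson intervals and exact conditional binomial intervals of the ratio, on fragments (sites / 2), used SciPy 1.17.1, and 20 sites were the minimum. No test was possible with 1 library per genotype. Code was tested on simulated data.

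Named regions were the 5 lowest and 5 highest (epithelial-like) or 3 and 3 (fibroblast-like) with at least 200 sites, and like genes the 3 with the highest correlation. The genes, lists and rules were chosen with earlier results of these data known. Other regions and sub-clusters in the text were named after their values were seen. The share of GFP-positive cells in the mix is given differently in the sources, so no class share is reported.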

Additional observations from a re-analysis of the deposited data

Results flagged for a closer look

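In 1 gene and 7 regions the change had opposite signs in the epithelial-like and the fibroblast-like class, with both intervals away from 0, and the difference was not tested. Over all Gli2 regions the change was 0.10 in the epithelial-like class and -0.14 in the fibroblast-like class, but scaled to the sites of all peaks the former was -0.05. The 7 regions were among 90 with at least 200 sites in both classes (7.78%), beside 7.997% (5728) of all 71624 such regions. At Gli2, the region chr1:118879398-118880090 was at -1.13 and 1.00, and chr1:118898111-118899031 at -0.97 and 0.90. The Gli2 regions chr1:118969235-118970133, which holds the Gli motif letters, and chr1:118976342-118977239 went the other way, at 0.47 and -1.35 and at 0.77 and -0.28. At Gli3, chr13:15457560-15458586 was at -1.55 and 0.90. At Sufu, chr19:46447694-46448630 was at -0.39 and 0.65, and chr19:46482572-46483328 at -0.29 and 0.69.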

How the results depend on the processing

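No paired analysis was possible because each genotype has 1 library and nothing was tested, so no replicate could be left out either. Another scaling moved the median of all promoters in epithelial-like cells from -0.41 to -0.56 (all own peaks), -0.26 (median of ratios), -0.50 (sites per cell) or -0.02 (promoter sites, added after the data were seen). The median of the 8 promoters was then -0.59 for own peaks, -0.29 for median of ratios and -0.0449 for promoter sites. Promoters past 2-fold numbered 1 (Ptch1) in thinned cells and within 100 bp of a start, and 2 at 1.5-fold, in epithelial-like cells, and 1 at 1.5-fold in fibroblast-like cells. Regions past 2-fold lower in epithelial-like cells numbered 27 in thinned cells, 75 at 1.5-fold and 16 with promoter scaling, and higher ones 32 at 1.5-fold and 31 with promoter scaling. In fibroblast-like cells they numbered 8 lower and 5 higher in thinned cells, 43 lower and 26 higher at 1.5-fold, and 5 higher in the gene body or promoter only. Shares over all promoters and regions were not computed at these settings, so these counts cannot be set against the rest. The short Gli letters were in 5 promoter regions and 41 others. The sign turned for the Shh promoter without 4 sub-clusters (0.35), the Gli2 promoter with promoter scaling (0.0209), the Smo regions with median of ratios (0.0014) and promoter scaling (0.24), the Gli2 regions with own peaks (-0.0488), and the Sufu regions in the gene body or promoter only (0.0017) and with promoter scaling (0.17). The 4 sub-clusters (the Control hair-follicle-like ones, an unnamed Control one and an unnamed MOF cKO one) were picked after the data were seen, in part for high Shh, so that turn says nothing about stability. The cause of the others was not tested. Of the summary values 93 stayed within their limits and 19 moved. Of the values of single genes 285 stayed, 108 moved and 7 turned sign from an interval away from 0. In 15 more the sign turned where the interval had held 0, such as the Hhip promoter (-0.10 with own peaks) and, in fibroblast-like cells with sites per cell, the Hhip promoter (-0.26) and the Shh (-0.24) and Gli3 (-0.25) regions. That setting moved the fibroblast-like medians to -0.31 over all promoters and -0.42 over the 8.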
